A study of Mus musculus with 6 samples.

Results

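The C/EBP family, the CCAAT/enhancer binding proteins, was read in the aorta of young and aged mice through the genes Cebpa, Cebpb, Cebpd, Cebpg and Cebpz. These 5 genes were found by symbol among the 55335 genes of the count table. All 5 passed the filter on low counts that left 16612 genes to be tested. The family was selected on measured values, because Cebpb and Cebpd were higher at 6 months. The age difference of its members is therefore given as a description, without a test. The study sequenced RNA from the aorta of wild-type C57BL/6 mice, 3 young mice aged 6 weeks and 3 aged mice aged 6 months, with 1 library per mouse. According to its methods, the mice were male, the fat around the vessel was dissected away and pieces of whole vessel wall were frozen. The labels name no treatment, and the groups differ by age as far as they say.

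C/EBP proteins are transcription factors of the basic leucine zipper (bZIP) class. A zipper joins a pair of proteins into a dimer, and the basic region beside it holds the DNA. C/EBPα maintains the differentiated state of fat cells, liver cells and myeloid cells, while C/EBPβ and C/EBPδ are induced by cytokines, glucocorticoids and other acute signals and act early in the differentiation of fat cells. C/EBPγ lacks an activation domain and pairs with C/EBPβ or with ATF4 in the response to amino acid shortage. Cebpz carries the family name, but its product is a nucleolar protein related to the NOC ribosome assembly factors.

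The libraries held between 31049632 and 45832185 counts, and genes of the mitochondrial genome took 14.9% to 21.19% of them in young and 23.13% to 30.44% in aged libraries, without overlap. Removing these genes before normalization gave log2 fold changes of 2.03 for Cebpb and 1.79 for Cebpd, described below. Smooth muscle markers dominated all 6 libraries, with summed levels of 27990 to 40200 CPM (TMM-normalized counts scaled to a common total) over 7 genes. Some libraries need mention before the results. Young replicate 1 went against the stated sex of the mice, with Xist at 305.6 CPM against 0.204 to 0.636 elsewhere and the Y-linked Ddx3y at 1.09 CPM against 44.8 to 65.6. Aged replicate 2 stood apart in some fat genes, with 5 brown adipocyte markers summing to 1822 CPM against 129 to 600 in the other libraries. Ucp1 alone gave 1422 CPM of that sum. Ucp1, Cidea and Cox7a1 were highest in this library, while Dio2 was lowest in it and Ppargc1a was below young replicate 2. Among other fat markers, Adipoq was at 94.3 CPM against 87.1 CPM in young replicate 2. Aged replicate 3 stood apart in endothelial genes, with 7 markers summing to 1724 CPM against 343 to 498 in the others. The members are given without these libraries as well, and the lists in some of the cases where leaving 1 out moved their count or median by over 1.5 times. In whole tissue, fewer cells of a type and less RNA per cell cannot be told apart.

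The coding sequence of the basic region, the part that grips DNA, is shown for Cebpa, Cebpb and Cebpg as the stretch where these bZIP members are most alike. The 63 bases below encode 21 residues on GRCm38 (GENCODE M21), and capitals mark the 38 bases that the 3 genes have in common. They lie at chr7:35120265-35120327 (plus strand) for Cebpa, chr2:167689685-167689747 (plus strand) for Cebpb and chr7:35050591-35050653 (minus strand) for Cebpg.
Cebpa: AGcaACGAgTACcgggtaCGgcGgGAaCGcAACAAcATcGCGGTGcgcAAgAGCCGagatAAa
Cebpb: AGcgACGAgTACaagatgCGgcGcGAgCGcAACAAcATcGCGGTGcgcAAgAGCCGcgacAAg
Cebpg: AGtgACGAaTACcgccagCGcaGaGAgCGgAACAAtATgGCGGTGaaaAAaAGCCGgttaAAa

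Against C/EBPβ, the translated stretch was identical at 18 of 21 residues in C/EBPα and at 16 in C/EBPγ. The stretch was chosen to give the highest summed identity over these 3 proteins, so their likeness follows from the choice. In proteins other than these 3, the best ungapped match to the same stretch reached 18 of 21 residues in the product of Cebpe and 7 in that of Cebpz. Cebpz also stood apart over the whole protein, with local alignment scores of 39 to 42 against these 3 members, which scored 192 to 382 among themselves. At the level of bases, Cebpa shared 53 of 63 with Cebpb and Cebpg shared 41.

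All members except Cebpz and Cebpg are intronless in this annotation. Cebpa lies on chromosome 7 from 35119293 to 35121928 in 1 exon, and Cebpg lies 62720 bases away on the same chromosome, from 35046422 to 35056573 on the other strand, in 3 merged exons. Cebpb lies on chromosome 2 from 167688915 to 167690418, and Cebpd on chromosome 16 from 15887286 to 15891031. Cebpz has 16 merged exons on chromosome 17, from 78919006 to 78937066. Exons of genes on the opposite strand cover 20.7% of the exon bases of Cebpb, shared with Tmem189, and 562 of the 3746 exon bases of Cebpd, shared with Spidr. Whether the counting used strand is not given in the sources used here, so reads in these overlaps may belong to either gene. Tmem189 lay between 23.7 and 40.3 CPM with a log2 fold change of -0.32, and Spidr between 5.55 and 8.85 CPM with 0.11. The groups overlapped in Spidr and in Tmem189. A530013C23Rik, a long noncoding RNA gene on the strand of Cebpb that begins 759 bases beyond it, was higher in all aged libraries, at 0.632 to 0.920 CPM against 0.0874 to 0.372 in young ones (log2 fold change 1.83, adjusted p = 0.443 by edgeR).

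Promoter windows of RefSeq (GRCm38.p6), from 250 bases before to 50 bases after the start of the gene, were matched for 3 of the 5 members. Those of Cebpa and Cebpb are shown because their levels differ most from each other across the libraries among members with a window. Capitals mark matches to TATAAA, the sequence of the TATA box, wherever they lie in the window. The windows are chr7:35119043-35119342 and chr2:167688665-167688964, both on the plus strand.
Cebpa promoter: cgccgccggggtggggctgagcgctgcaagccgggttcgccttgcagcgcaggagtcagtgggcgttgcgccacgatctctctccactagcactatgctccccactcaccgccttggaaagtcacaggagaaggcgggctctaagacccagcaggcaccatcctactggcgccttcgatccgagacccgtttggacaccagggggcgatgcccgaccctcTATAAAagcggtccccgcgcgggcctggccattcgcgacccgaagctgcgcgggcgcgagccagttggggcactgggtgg
Cebpb promoter: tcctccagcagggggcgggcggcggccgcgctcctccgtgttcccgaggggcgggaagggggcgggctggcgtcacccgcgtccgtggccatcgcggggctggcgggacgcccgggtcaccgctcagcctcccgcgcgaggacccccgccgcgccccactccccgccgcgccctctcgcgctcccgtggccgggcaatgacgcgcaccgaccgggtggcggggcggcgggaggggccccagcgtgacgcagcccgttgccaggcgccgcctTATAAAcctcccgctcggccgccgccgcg

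TATAAA began 30 bases before the start of Cebpa (position -30) and at position 22 after the start of Cebpb, and 13.62% of 32851 promoters held it on either strand. The Cebpg window held CCAAT on the strand opposite to the gene, read as ATTGG along it, at positions -89 and -28. This motif was found in 37.41% of promoters. The windows were rich in G and C, at 67.3% in Cebpa, 80.7% in Cebpb and 71.7% in Cebpg against a median of 52.7%. None of the 3 windows held the C/EBP palindrome TTGCGCAA (0.18% of promoters), the looser TTGCNNAA (10.8%), the C/EBP-ATF site TGATGCAA (0.89%), the cAMP response element TGACGTCA (1.79%), the STAT site TTCNNNGAA (8.3%) or AGAACA of the glucocorticoid receptor (18.97%). Both strands were searched, and the palindrome is also a match of the looser site. The absence of a match concerns these windows alone.

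Cebpb, the inducible member that activates acute phase and cytokine genes, was the scarcest member in young aorta. It had 266, 192 and 168 counts in young replicates 1, 2 and 3, or 5.49, 5.52 and 4.90 CPM. In aged replicates 1, 2 and 3 it had 531, 1285 and 417 counts, or 16.0, 34.1 and 14.8 CPM. All aged libraries lay above all young libraries, and aged replicate 2 was the highest. The log2 fold change was 2.03 with a standard error of 0.35, or 4.07-fold. The spread was much wider in aged aorta, with a coefficient of variation of 50% against 6.64% in young aorta. Leaving out aged replicate 2 gave 1.54, or 2.90-fold, and leaving out young replicate 1 as well gave 1.57. Without aged replicate 3 alone it was 2.24, and without young replicate 1 alone 2.06.

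Cebpd, the partner of Cebpb in the early response to cytokines and glucocorticoids, was higher in aged aorta by a like amount but in another order of libraries. It had 679, 622 and 674 counts in young replicates 1, 2 and 3, or 14.01, 17.9 and 19.6 CPM. In aged replicates 1, 2 and 3 it had 2357, 1429 and 1999 counts, or 70.9, 37.9 and 70.7 CPM. The groups did not overlap here either, but aged replicate 2, the highest for Cebpb, was the lowest of the aged libraries. The log2 fold change was 1.80 with a standard error of 0.28, or 3.48-fold. Without aged replicate 2 it was 2.05, or 4.13-fold, and it was 1.68 without young replicate 1 and 1.67 without aged replicate 3. All aged libraries lay above all young libraries in 7.74% of the 16612 genes tested, and below them in 8.78%. Since the family was chosen for this difference, nothing is read from the 2 of 5 members that show it.

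Cebpa, which holds fat, liver and myeloid cells in their mature state, varied more between mice than between ages. Its levels were 15.4, 36.6 and 8.97 CPM in young replicates 1, 2 and 3 and 11.6, 45.5 and 10.9 CPM in the aged replicates, from 308 to 1716 counts. Replicate 2 was the highest library of each group, and the groups overlapped over nearly their whole range. The log2 fold change was 0.16 with a standard error of 0.69. It changed sign without aged replicate 2, to -0.85, was 0.49 without aged replicate 3 and was -1.01 without young replicate 1 and aged replicate 2 together. Without young replicate 1 alone it was 0.0059. The coefficient of variation was 71.2% in young and 87.2% in aged aorta.

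Cebpg, the short partner protein without an activation domain, showed little difference. It lay at 27.0, 22.96 and 33.0 CPM in young and at 28.1, 35.7 and 38.0 CPM in aged replicates 1, 2 and 3, so the groups overlapped. The log2 fold change was 0.30 with a standard error of 0.20, and 0.19 to 0.45 with 1 library left out. Cebpz, the nucleolar protein, was the steadiest member, with 34.2, 31.0 and 33.5 CPM in young and 31.9, 33.3 and 35.1 CPM in aged replicates 1, 2 and 3. Its log2 fold change was 0.02 with a standard error of 0.14, and -0.01 to 0.06 with 1 library left out. Its coefficients of variation were 5.04% and 4.86%. On the FPKM scale the small log2 fold change also changed sign, to -0.17 with a pseudocount of 1. Cebpzos, whose exons share 171 bases with Cebpz, and Ndufaf7, which starts 70 bases away, lay at 5.10 to 8.35 and 14.4 to 24.5 CPM. Cebpe, the granulocyte member, was no part of the chosen set and was listed at 0 counts in all 6 libraries, which allows up to 0.0619 to 0.106 CPM (3 counts per library, counting error only).

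**Figure D1:**
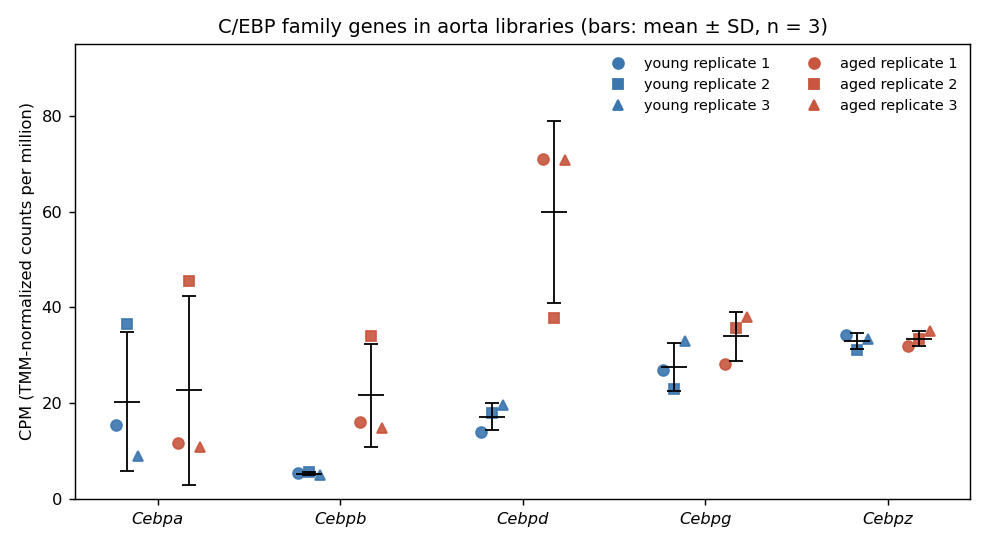
Level of each C/EBP gene in CPM (vertical axis, linear, from 0) in the 3 young and 3 aged libraries, with points for libraries and bars for mean ± SD. Cebpb and Cebpd show no overlap between the ages, Cebpa has its highest points in replicate 2 of each age, and Cebpz stays between 31.0 and 35.1 CPM.

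Levels of different genes can be compared per length, as FPKM, a count divided by the length of its gene and the size of its library. Over the 6 libraries the mean FPKM was 8.89 for Cebpd, 7.75 for Cebpb, 7.37 for Cebpa, 6.46 for Cebpz and 4.91 for Cebpg, between the 64.68th and 78.49th percentile of the tested genes. These means differed by less than the SD of Cebpa, which was 5.36 FPKM in young and 6.46 in aged aorta. The order within libraries was more regular. Cebpb ranked last of the 5 in each young library and first or second in each aged library. Cebpd led in aged replicates 1 and 3 with 41.3% and 40.08% of the summed FPKM, Cebpb led in aged replicate 2 with 35.65%, and Cebpa led in young replicate 2 with 41.97%.

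Summed over the 5 genes, FPKM reached 27.1 ± 4.54 in young libraries and 43.7 ± 9.11 in aged libraries (mean ± SD, n = 3 each). Cebpb made up 12.8% ± 1.67 of it in young and 26.5% ± 7.98 in aged aorta. Cebpd made up 16.7% ± 3.70 and 32.4% ± 14.3, and Cebpz 26.0% ± 5.05 and 14.1% ± 2.497. Without aged replicate 2, the aged means were 38.4 FPKM for the sum, 22.0% for Cebpb, 40.7% for Cebpd and 15.5% for Cebpz. Shares of a whole are tied to each other. On this scale Cebpz itself was at 6.53 to 7.18 FPKM in young and 5.84 to 6.12 FPKM in aged libraries, without overlap, whereas in CPM its groups overlapped. The median log2 fold change of all tested genes was also lower in FPKM, at -0.12 with a pseudocount of 1 against 0.02 from counts. The share of all genes without overlap in FPKM was not counted, so no decline of Cebpz is read from this. The ratio of Cebpb to Cebpa was 0.626, 0.264 and 0.957 in young replicates 1, 2 and 3 and 2.41, 1.31 and 2.38 in the aged replicates. Cebpa was thus above Cebpb in every young library and below it in every aged library. This count follows from the measure that chose the family and is a description.

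**Figure D2:**
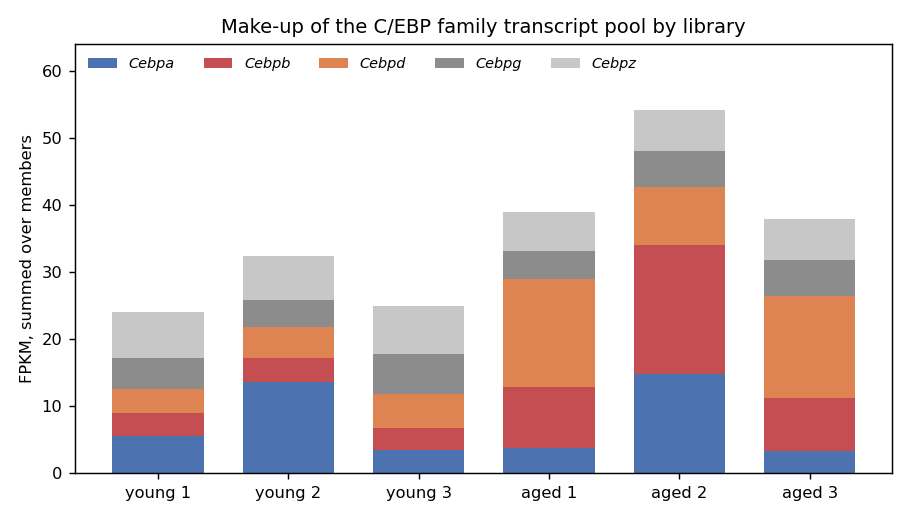
Stacked FPKM of the 5 genes in each library (vertical axis, linear, from 0), 1 bar per library and 1 colour per gene. The sum lies between 24.1 and 32.3 FPKM in young libraries and between 37.9 and 54.2 in aged ones, and Cebpd fills the largest part of aged replicates 1 and 3.

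Profiles were compared as log2(CPM + 0.5) centred over the 6 libraries, and the likeness of a pair of genes was the root mean square of their difference. This measure is over 6 libraries that share depth and tissue make-up, so it is a description. Among the members, Cebpg and Cebpz were closest, at 0.21, while Cebpb and Cebpd were 0.70 apart and Cebpa and Cebpd were farthest, at 1.41. The 5 genes closest to Cebpb were Tubb3 (0.28), Mt1 (0.30), Glul (0.33), Gpnmb (0.34) and Mthfd2 (0.34). Mt1 encodes a metallothionein, Glul glutamine synthetase and Mthfd2 a mitochondrial enzyme of folate metabolism. Glul lay at 151, 242 and 200 CPM in young replicates 1, 2 and 3 and at 412, 784 and 561 CPM in the aged replicates, with its highest level in aged replicate 2 as in Cebpb.

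The 5 genes closest to Cebpd were Ccnd1 (0.084), Ifi207 (0.13), Mki67 (0.16), Slc43a3 (0.21) and Ccnb2 (0.22). Ccnd1, Mki67 and Ccnb2 are genes of dividing cells. Ccnd1 had 8.61, 11.0 and 11.0 CPM in young replicates 1, 2 and 3 and 49.3, 23.8 and 45.2 CPM in the aged replicates, with aged replicate 2 the lowest of the aged group as in Cebpd. The genes closest to Cebpa, read after its values were seen, were Fabp3, Hadh, Acaa2, Adhfe1 and Sucla2, at 0.15 to 0.20. Fabp3 carries fatty acids, and Hadh and Acaa2 are enzymes of their oxidation. Fabp3 was at 34.9, 81.4 and 19.8 CPM in young and 19.9, 85.6 and 21.6 CPM in aged replicates 1, 2 and 3.

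**Figure D3:**
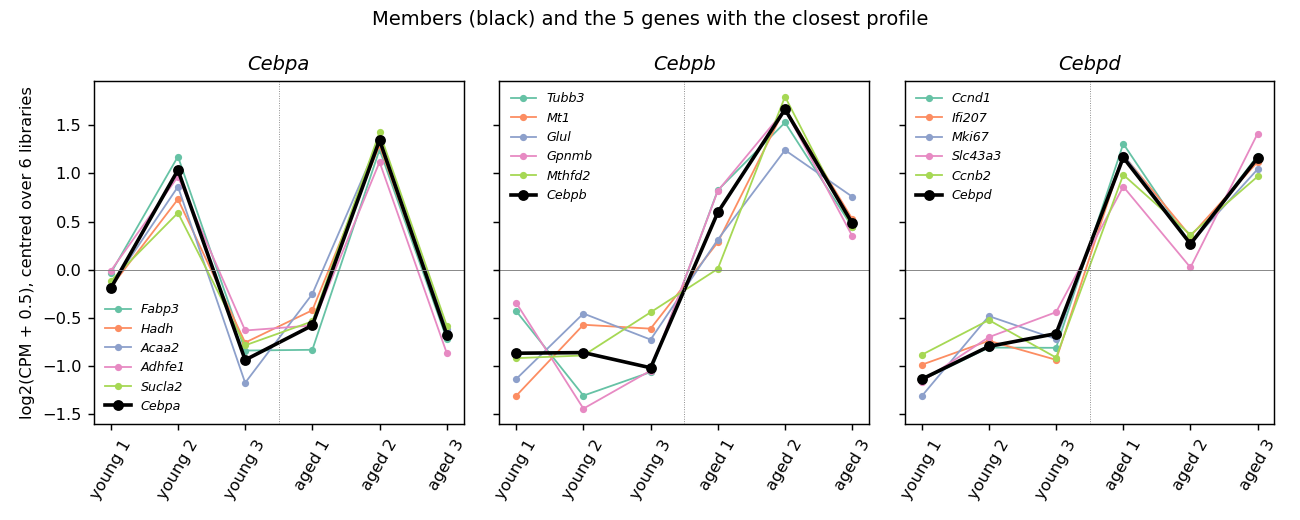
Centred log2(CPM + 0.5) of Cebpa, Cebpb and Cebpd (black) and of the 5 genes with the closest profile (coloured), 1 panel per member, over the 6 libraries named on the horizontal axis. Lines join libraries only to show a gene as a unit, since replicates have no order. Aged replicate 2 is the highest aged library in the Cebpa and Cebpb panels and the lowest in the Cebpd panel.

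Markers of cell types that the vessel pieces could hold were read beside these patterns. Of 7 adipocyte markers, 6 had their highest level of both groups in replicate 2, as Cebpa did, and so had 4 of 5 brown adipocyte markers, against 12.4% of all tested genes. The summed adipocyte markers were 1270, 1812 and 954 CPM in young and 982, 2793 and 1423 CPM in aged replicates 1, 2 and 3, and none was at 0 everywhere. All 7 fibroblast markers and 7 of 8 macrophage markers were lowest in aged replicate 2 among the aged libraries, as Cebpd was, against 38.1% of all tested genes. Macrophage markers summed to 66.4, 52.6 and 45.7 CPM in young and 220, 77.2 and 179 CPM in aged replicates 1, 2 and 3, and 4 of the 8 were higher in all aged than in all young libraries, against 7.74% of all tested genes. Fibroblast markers summed to between 4366 and 5574 CPM in young and between 3039 and 9646 CPM in aged aorta. Their part in the levels of Cebpa, Cebpb and Cebpd was not tested.

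Genes that work with C/EBP factors were then read in 8 lists of 137 genes. The age groups were tested in edgeR by quasi-likelihood, with p values adjusted after Benjamini and Hochberg. No gene passed an adjusted p of 0.05 among the 16612 tested (0 genes, 0%), list genes included, whose smallest adjusted p was 0.306. Unadjusted p values under 0.05 were found for 5.56% of all tested genes in the direction of higher and for 4.82% in the direction of lower levels at 6 months. The Wald test of DESeq2 called 1.33% higher and 0.704% lower. The counts below are read against these shares, and list medians against the median log2 fold change of 0.02 over all tested genes, of which 52.1% were positive.

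Among bZIP relatives and partners, differences had both signs. Of 14 genes, 11 were tested, with a median log2 fold change of 0.17. At an unadjusted p under 0.05, 2 were higher and 1 was lower, and DESeq2 called 1 in each direction. Without aged replicate 2 the median was 0.52, without aged replicate 3 it was -0.02, and without young replicate 1 it was 0.32 with 1 gene higher and 2 lower. Atf5, a stress-responsive bZIP factor, was at 93.5, 87.7 and 83.1 CPM in young and 164, 122.9 and 147 CPM in aged replicates 1, 2 and 3 (0.71 ± 0.16 on the log2 scale, adjusted p = 0.372 by edgeR and 0.0146 by DESeq2). Atf3, an early stress gene whose product pairs with C/EBP proteins, was lower, at 69.2, 50.2 and 92.0 CPM in young and 33.8, 19.7 and 7.75 CPM in aged replicates 1, 2 and 3. Its log2 fold change was -1.79 with a standard error of 0.50 (adjusted p = 0.377 by edgeR and 0.0176 by DESeq2). Over all alternatives the adjusted p reached 0.765 for Atf5 and Atf3 alike. Batf stayed at 0.933 CPM or below, and Dbp, a bZIP gene of the circadian clock, ranged from 10.1 CPM in young replicate 1 to 436 in young replicate 2.

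Inducers of Cebpb and Cebpd and their receptors mostly had higher values in aged aorta. Of 17 genes, 13 were tested, 11 had a positive log2 fold change and the median was 0.59. At an unadjusted p under 0.05, 5 were higher and 0 lower, and DESeq2 called 0. The 5 became 1 of 15 tested genes without young replicate 1 (5.9% of all genes) and 1 of 14 without aged replicate 3 (3.67% of all genes). They were 6 of 15 without aged replicate 2, against 8.19% of all genes, with a median of 1.00, and without aged replicate 3 the median was 0.37. Igf1, a growth factor, was at 41.2, 37.9 and 39.9 CPM in young and 161, 41.9 and 104 CPM in aged replicates 1, 2 and 3. Its aged replicate 2 was thus close to the young libraries, and without that library edgeR called it (adjusted p = 0.0356, against 0.390 with all libraries and up to 0.786 over the alternatives). Osmr, the oncostatin M receptor, had a log2 fold change of 0.87 and Stat3, the factor that carries its signal to Cebpb and Cebpd, one of 0.59, and in both the groups overlapped. The receptor genes Il6st and Tnfrsf1a were at 159 to 323 and 72.2 to 115 CPM, with overlapping groups.

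Feedback and degradation factors restrain C/EBP activity or the signals that induce it. The glucocorticoid targets Fkbp5 and Tsc22d3 were listed with them, as were Klf15 and Per1, so the list is mixed. All 13 genes were tested, with a median of 0.42, 2 higher and 1 lower at an unadjusted p under 0.05, and 2 called higher by DESeq2, namely Fkbp5 and Tsc22d3. The median was 0.18 without young replicate 1, 0.17 without aged replicate 2 and 0.13 without aged replicate 3. Fkbp5, given next, had 2.54 without aged replicate 2. Fkbp5 was at 6.27, 16.4 and 14.7 CPM in young and 55.6, 177 and 88.9 CPM in aged replicates 1, 2 and 3, with 3.11 ± 0.53 (standard error) on the log2 scale (adjusted p = 0.306 by edgeR and 1.85e-07 by DESeq2). Tsc22d3 had a log2 fold change of 1.98 with a standard error of 0.49 (adjusted p = 0.377 by edgeR and 0.00383 by DESeq2). Over the alternatives the adjusted p reached 0.745 for Fkbp5 and 0.765 for Tsc22d3. Id2, which binds other transcription factors and blocks them, was lower, at 156 to 207 CPM in young and 103 to 135 CPM in aged aorta. Zfp36, which destabilizes cytokine mRNAs, overlapped between groups.

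The adipocyte programme, the set that C/EBPα and PPARγ turn on in fat cells, gave 0 genes at an unadjusted p under 0.05 in either direction. All 16 genes were tested, 12 were positive and the median was 0.42. That median rested on aged replicate 2, and without it was -0.87, with 3 genes lower at an unadjusted p under 0.05. Fasn, fatty acid synthase, reached 3809 CPM in aged replicate 2 against 130 to 603 CPM in the other libraries. Scd1 reached 6362 CPM there against 285 to 1122 elsewhere, and Acacb 340 CPM against 24.4 to 66.1. Fabp4 was at 334 to 916 CPM in young and 577 to 1518 CPM in aged aorta. As in Cebpa, 11 of the 16 genes were highest in replicate 2 of both groups, against 12.4% of all tested genes. Adipoq, Plin1, Cidec, Lep, Cfd and Fabp4 are in this list and among the adipocyte markers above, so these counts largely repeat each other.

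The list of acute phase and cytokine targets was built around C/EBPβ and C/EBPδ from general knowledge. Not every gene in it is a classical target of these factors, and it also holds Mt1, Mt2 and Timp1. Whether C/EBP proteins act on these genes here was not tested. The list had a median log2 fold change of 1.025 over 18 tested genes of 25. At an unadjusted p under 0.05, 8 were higher and 1 lower, and DESeq2 called 5 higher, namely Mt1, Mt2, Lcn2, C3 and Timp1. Mt2 was at 15.8, 29.03 and 25.1 CPM in young and 51.1, 265 and 101 CPM in aged replicates 1, 2 and 3, or 2.58 ± 0.59 (standard error) on the log2 scale (adjusted p = 0.372 by edgeR). Mt1, its neighbour in function, had 1.76 (standard error 0.40, adjusted p = 0.372 by edgeR). Mt2 was at 1.71 and Mt1 at 1.21 on the log2 scale without aged replicate 2. Both metallothioneins bind zinc and copper, and both were highest in aged replicate 2, as was Cebpb. The list as a whole did not share this order. Among the aged libraries, 5 of its 18 tested genes were highest in replicate 2 and 10 were lowest there. Of all tested genes, 38.1% were lowest there. Lcn2, a secreted iron-sequestering protein, was at 0.350 CPM or below in young and 1.09 to 2.23 CPM in aged aorta, a low level, and its log2 fold change of 3.12 was 4.02 without young replicate 3. The gene that was lower was Fgb, a fibrinogen chain, with a log2 fold change of -2.56 that rested on young replicate 3. Fgb was at 6.91 CPM in that library and at 1.40 CPM or below in all others, and Fga and Fgg were highest in it as well. Without aged replicate 2, the median was 1.04 and 9 of 21 tested genes were higher at an unadjusted p under 0.05, against 8.19% of all genes, and edgeR called Timp1, an inhibitor of matrix proteases (adjusted p = 0.0302, against 0.400 with all libraries).

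Myeloid targets had the highest median of the 8 lists, 1.22 over 13 tested genes of 19, of which 12 were positive. At an unadjusted p under 0.05, 6 were higher and 0 lower, and DESeq2 called Itgam and Csf1r higher. Itgam, an integrin of myeloid cells, was at 1.05, 0.402 and 0.350 CPM in young and 5.06, 3.76 and 4.39 CPM in aged replicates 1, 2 and 3, a log2 fold change of 2.85 that was 3.54 without young replicate 1. These values are of 1 of its 2 rows, and the other, with 288 counts in total, was not used. Csf1r, the receptor that sustains macrophages, was at 12.3, 14.7 and 12.5 CPM in young and 36.9, 16.6 and 30.3 CPM in aged replicates 1, 2 and 3. Without aged replicate 2, edgeR called Csf1r (adjusted p = 0.0454, against 0.377 with all libraries and up to 0.765 over the alternatives). Lyz2, lysozyme of macrophages, had a log2 fold change of 1.32 with a standard error of 0.43 and overlapped between groups through aged replicate 2. The macrophage markers given above, of which Fcgr1 is also in this list, moved with it, and their part in it was not tested. Neutrophil markers were also higher in sum, at 3.61, 2.64 and 5.04 CPM in young and 5.48, 5.96 and 7.93 CPM in aged replicates 1, 2 and 3. Of these 8 markers, S100a9, Csf3r and Ngp were higher in all aged than in all young libraries, against 7.74% of all tested genes. Only 4 of the 8 passed the filter, and Ngp, Cxcr2, Retnlg and Camp did not. Mmp9 was the largest part of the sum in every library, with a log2 fold change of 0.09. The groups overlapped in Mmp9, S100a8, Cxcr2, Retnlg and Camp, and the mean of Camp was lower in aged aorta. S100a8, S100a9 and Csf3r are also in the list, and the part of the neutrophil markers was not tested.

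The amino acid stress response, in which C/EBPγ acts with ATF4, had a median of 0.41 over 14 tested genes of 15, and 12 were positive. At an unadjusted p under 0.05, 3 were higher and 0 lower, and DESeq2 called Mthfd2. Leaving out aged replicate 2 made it 5 of 14, against 8.19% of all genes, and Mthfd2 then had a log2 fold change of 1.03 in place of 1.78. Slc3a2 and Slc7a5 encode the heavy and the light chain of an amino acid transporter. Slc3a2 was at 37.1, 35.6 and 43.6 CPM in young and 54.3, 67.7 and 59.6 CPM in aged replicates 1, 2 and 3 (0.64 ± 0.16 on the log2 scale, adjusted p = 0.377 by edgeR). Slc7a5 had 1.01 (standard error 0.28, adjusted p = 0.377 by edgeR). Mthfd2 was at 5.04, 5.14 and 7.20 CPM in young and 10.02, 35.8 and 13.7 CPM in aged replicates 1, 2 and 3. Herpud1 and Eif4ebp1, the most abundant members, had 0.09 and 0.41. Atf4 itself, of the list of relatives and named after its values were seen, had a log2 fold change of 0.19.

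Nucleolar partners of Cebpz, which build ribosomal subunits, lay close to equal levels between ages in their median. All 18 genes were tested, 9 were positive, the median was 0.01 and 0 passed an unadjusted p of 0.05. In 3 of the 18, Noc2l and Noc4l among them, all aged libraries lay below all young libraries, against 8.78% of all tested genes. In 0 of the 18 they lay above, against 7.74%. Their log2 fold changes ran from -0.45 for Noc4l to 0.34 for Npm1. Npm1, nucleophosmin, was at 166 to 236 CPM in young and 226 to 264 CPM in aged aorta. Noc2l was at 43.7 to 47.5 CPM in young and 36.7 to 41.0 CPM in aged aorta, and Ncl, nucleolin, at 282 to 291 and 284 to 324 CPM.

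**Figure D4:**
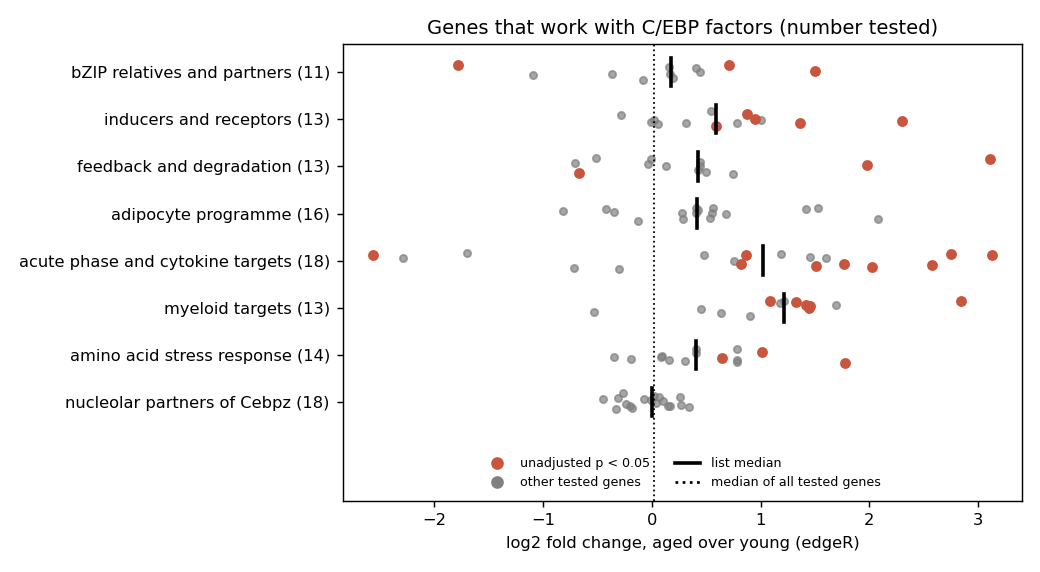
Log2 fold change of aged over young aorta by edgeR (horizontal axis) for each tested gene of the 8 lists (rows, with the number tested), with red points at an unadjusted p under 0.05, a bar for the list median and a dotted line for the median of all tested genes at 0.02. The medians of acute phase and myeloid targets lie at 1.025 and 1.22, and that of the nucleolar list at 0.01.

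The members were also fitted under 15 alternative settings. The log2 fold change of Cebpb was positive in 15 of 15 and that of Cebpd in 15 of 15, as the choice of the family fixes. Cebpg was positive in 15 of 15, Cebpz in 11 and Cebpa in 10.

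**Figure D5:**
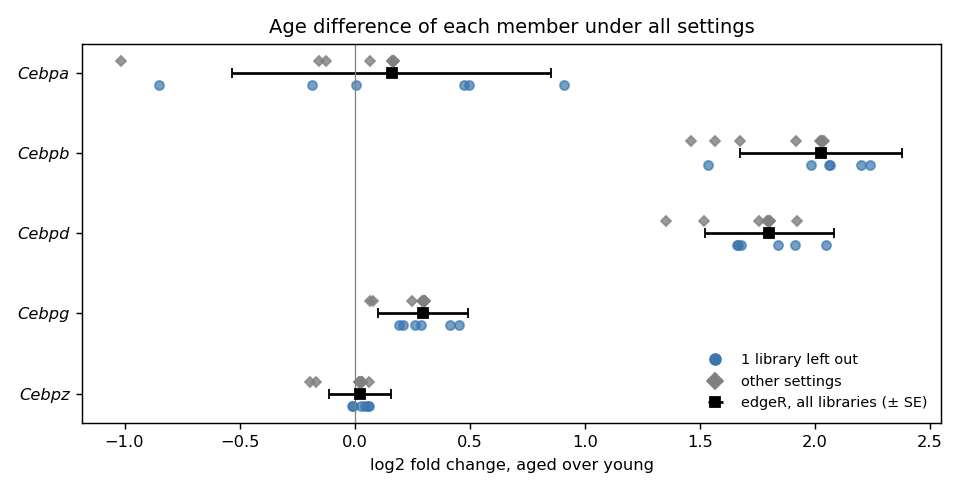
Log2 fold change of aged over young aorta (horizontal axis) for each member, with squares for the edgeR fit of all libraries (bars, standard error), circles for fits with 1 library left out and diamonds for other settings. Cebpa runs from -1.01 to 0.91 across 0, while Cebpb stays at 1.46 or above and Cebpd at 1.35 or above.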

How the data were processed

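RNA from 6 mouse aortas was read as single-ended sequences. The authors deposited raw counts per gene and, in another table, FPKM. The labels name the mm10 build, and the aligner and counting tool are not given in the sources used here. The 6 columns were matched to samples by label, and 0 sample columns were left unmapped. Counts were filtered (filterByExpr, minimum count 10, minimum total 15), TMM-normalized and fitted without covariates in edgeR 4.0.16 (R 4.3.3). DESeq2 1.42.0 and limma 3.58.1 on log2(FPKM + 1) or log2(FPKM + 0.1) served as alternatives, and the fit was tested on simulated data. Adjusted p values cover all tested genes at a threshold of 0.05. Profiles were compared among genes averaging 1 CPM or more. Promoter windows and coding stretches were read with Biopython 1.88. The coding stretch of Cebpd is not reported here.

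The members and lists were chosen with earlier results of these data known. Named genes are the members, the 3 of each list with the smallest p and its 2 with the highest mean FPKM, the 5 genes nearest in profile to Cebpb and to Cebpd, and neighbouring genes. Other genes were named after their values were seen. Cop1 was matched by identifier. Itgam has a second row, with 288 counts in total, that was not used. Nothing says that the mice came from separate litters or cages, so p values measure the spread between these mice.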

Additional observations from a re-analysis of the deposited data

How the results depend on the processing

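The number of genes called by edgeR over all tested genes was 0, DESeq2 gave 338, and leaving out single libraries gave 0 to 110, the latter without aged replicate 2. DESeq2 called 2 bZIP relatives, 2 feedback genes, 5 acute phase genes, 2 myeloid genes and 1 amino acid stress gene. With 1 library left out, between 0 and 1 gene was called among inducers, acute phase targets and myeloid targets. Cebpa was at -1.01 without young replicate 1 and aged replicate 2 together, and between -0.85 and 0.91 with 1 library left out. Cebpb lay between 1.54 and 2.24 with 1 library left out. Limma on log2(FPKM + 1) gave 1.46 for Cebpb, 1.35 for Cebpd and -0.17 for Cebpz, and with a pseudocount of 0.1 Cebpz was at -0.19. Limma moved the median of all genes to -0.12 and -0.19, against 0.02 by edgeR.

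Sign changes among the named genes were these. With limma and pseudocounts of 1 and 0.1, Dbp was at 0.43 and 0.53, Scd1 at -0.075 and -0.083, Herpud1 at -0.10 and -0.11 and Ncl at -0.11 and -0.12. Without young replicate 1 and aged replicate 2 together, Il6st was at 0.22, Zfp36 at 0.0055, Fasn at -0.41, Acacb at -0.67 and Scd1 at -1.17. With 1 library left out, Dbp ranged from -0.93 to 0.28, Il6st from -0.25 to 0.23, Zfp36 from -0.29 to 0.30, Fasn from -1.24 to 2.93, Acacb from -0.78 to 1.91, Scd1 from -1.49 to 2.05 and Herpud1 from -0.067 to 0.28. The cause was not tested.

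A fit with replicate blocks called 0 genes (1782 at an unadjusted p under 0.05), Dbp was at 0.26 and Zfp36 at 0.044, and the block changed no call. Same-numbered libraries had deviations correlated at 0.079, 0.134 and 0.128, and not every pair exceeded 0.1, so no pairing was taken from the numbers. Each library correlated best with its own number, which is a hint from the data and not from the design.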

Other observations

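Some list genes had 1 or 2 libraries far from the rest and were read after their values were seen. Creb1, a bZIP factor that activates Cebpb, was at 3.71 CPM in young replicate 2 and 9.09 CPM in aged replicate 2, against 34.6 to 42.7 CPM in the other libraries. Insr, the insulin receptor, was at 7.79 CPM in aged replicate 1 and between 35.7 and 98.9 CPM elsewhere. Tlr4, a receptor for bacterial lipopolysaccharide, was at 0.795 CPM in aged replicate 2 and between 18.4 and 20.1 CPM elsewhere. Fga was at 10.3 CPM in young replicate 3 and at 1.24 CPM or below in the other libraries. Young replicate 1 was also apart in bZIP genes of the clock, with Nfil3 at 58.6 CPM against 18.2 or below and Tef at 28.5 CPM against 58.4 or above.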
